A study of Homo sapiens with 4 samples.

Results

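The enzymes that place, remove and bind modified bases in RNA were examined as targets of the assay itself: the cytidine positions listed in their own transcripts were taken from the tables of untreated and TGF-β1-treated LX-2 cells. The members were 39 genes chosen by symbol, and every line carrying one of these names in either table was used, with 1 entry per position and gene. Of the 39 genes, 24 had a listed position, and together they held 70 distinct positions out of 17862 over all 6112 listed genes. LX-2 is an established line of human hepatic stellate cells, the liver cell that turns into a matrix-producing myofibroblast, and its genotype is labelled WT in all libraries. The TGF-β1 group comprised 2 libraries of cells given human recombinant TGF-β1 at 5 ng/ml for 24 h, and the control group comprised 2 libraries of untreated cells. Polyadenylated RNA was sequenced after NaBH4, which reduces N4-acetylcytidine (ac4C) to a base that is misread during reverse transcription, and the study asked how ac4C changed after TGF-β1. The libraries are described as biological replicates, but the deposited values are combined by group. Each listed position thus has 1 mismatch difference per group, printed here in percent, and 1 p-value of the authors, without a replicate error or a read depth. No library is labelled as untreated with NaBH4 or depleted of NAT10, so a listed position is a mismatch at a C and was not shown here to be ac4C.

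RNA bases are modified after transcription by enzymes usually called writers, some marks are taken off by erasers, and readers are proteins that bind the marked base. N6-methyladenosine (m6A), placed by a complex built around METTL3 and METTL14, is the best known internal mark of messenger RNA and acts on splicing, export, translation and decay. Adenosine is also deaminated to inosine by ADAR enzymes, cytidine is methylated by NSUN proteins, and uridine is turned into pseudouridine or dihydrouridine or modified at the wobble base of transfer RNA. In stellate cells, m6A enzymes and readers have been studied for their part in activation and fibrosis. Most members act on transfer RNA or messenger RNA and none is known as the writer of ac4C, which is NAT10.

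The tables held 11735 positions in 4444 genes after TGF-β1 and 8112 positions in 4384 genes in control, with no level below 1% and no authors' p-value above 0.05. Of 12 stellate or mesenchymal marker genes 9 were listed, with 40 positions after TGF-β1 and 12 in control, while COL1A2, PDGFRA and DES were not. None of 8 hepatocyte and 5 endothelial markers had a listed position, and 1 of 5 cholangiocyte markers (SOX9) and 1 of 5 macrophage or leukocyte markers (CD68) did. A gene absent from a table has no value there, and in these bulk samples fewer cells in a given state and less RNA per cell cannot be told apart.

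The base at a listed position could be read for 406 positions of the tables that lie well inside a RefSeq promoter window (GRCh38.p14), and it was C on the annotated strand in all 406. These include 2 positions of the modification genes, which are shown because they are the only ones whose surrounding letters could be printed here. Each line gives 12 bases to either side in lower case, 5′ to 3′ on the transcript strand, with the listed cytidine in capitals.
IGF2BP2: agacgagggcagCggaggaggcgag
ALYREF: aaaacaacttccCgacaagtggcag
The IGF2BP2 stretch is chr3:185825012-185825036 on the minus strand, in the 5′UTR, with its listed cytidine 18 bases downstream of the RefSeq start of the gene. The ALYREF stretch is chr17:81890794-81890818 on the minus strand, in coding sequence, and was read from the window of the neighbouring gene ANAPC11. Both cytidines were listed in the control table alone, at 4.65% in IGF2BP2 and 8.75% in ALYREF.

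Over all members the number of listed positions was the same in both groups, 38 after TGF-β1 and 38 in control, a ratio of 1.00. Over all listed genes the ratio was 1.46 (12076 and 8298 positions, counted for each gene). Among the 24 genes with any position, 10 carried more positions after TGF-β1, against 51.2% of all listed genes, and 12 had fewer, against 35.3%. The remaining 2 had equal numbers. Genes acting on adenosine had 7 positions after TGF-β1 and 24 in control, genes acting on cytidine 15 and 7, genes acting on uridine 14 and 7, and TRMT1, which dimethylates a guanosine of transfer RNA, 2 and 0. The ratio of TGF-β1 to control positions was 0.292 for adenosine, 2.14 for cytidine and 2 for uridine genes. These counts have no replicate error, and no test of the difference between the classes was made. With positions of at least 5% only, the adenosine genes had 5 and 8 positions, a ratio of 0.625 beside 1.75 over all genes. The TGF-β1 table was also shortened to the length of the control table by lowest p. The uridine genes then had 8 and 7, a ratio of 1.14 beside 1.00 over all genes.

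**Figure D1:**
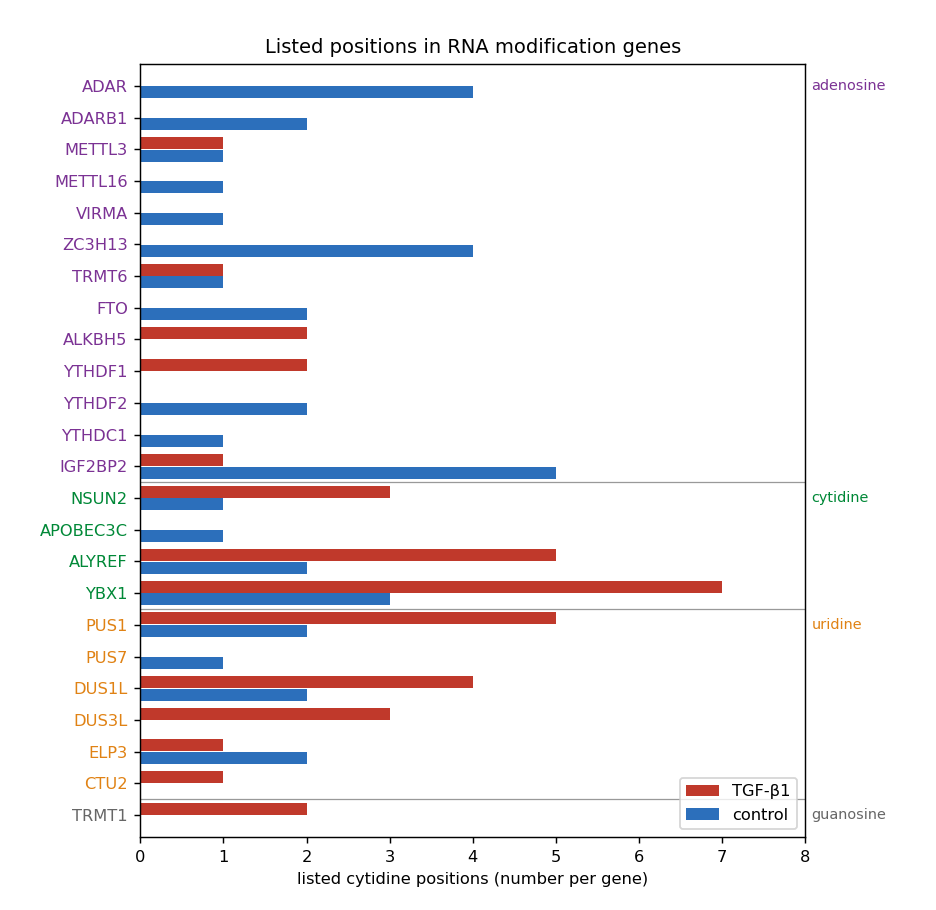
Number of listed cytidine positions (x axis) in each of the 24 listed genes (y axis), with TGF-β1 in red above control in blue and genes grouped by the base they act on. The adenosine genes hold 7 TGF-β1 and 24 control positions, the cytidine genes 15 and 7, and the uridine genes 14 and 7.

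The A-to-I editors were among the 10 members listed in control alone, as were 27.3% of all listed genes. ADAR, the main adenosine deaminase of double-stranded RNA, had 0 positions after TGF-β1 and 4 in control, and ADARB1, the second active enzyme of this family, had 0 and 2. Of all genes with at least 4 positions over both tables, 3.17% had every one of them in control. The ADAR positions in control lay in the 3′UTR at 5.71% (chromosome 1 position 154582633) and 13.97% (position 154582889) and in coding sequence at 3.96% and 2.73%. ADARB1 had 3.18% in its 5′UTR and 8.52% in its 3′UTR, where the authors' p-value was exactly 0. ADAT1, ADAT2 and ADAT3, which deaminate adenosines of transfer RNA, had no listed position.

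The m6A writers had 1 position after TGF-β1 and 7 in control. ZC3H13, a zinc finger protein that holds the writer complex in the nucleus, had 0 and 4 positions, all 4 in coding sequence and within the stretch from chromosome 13 position 45967518 to 45968968. Their levels in control were 3.27%, 1.61%, 2.53% and 10.1%. The authors' p-values were 0.0333, 0.0358, 0.000144 and 4.81e-05 in the same order. METTL3, the catalytic subunit, was listed once per group at different cytidines of its coding sequence, at 10.8% after TGF-β1 (chromosome 14 position 21503399) and at 2.96% in control (position 21501897). The authors' p-value was exactly 0 for the first of these and 0.0498 for the second. METTL16, a separate methyltransferase that acts on U6 small nuclear RNA, and VIRMA, the scaffold of the writer complex, each had 1 coding position in control, at 3.81% and 3.02%, and 0 after TGF-β1. METTL14, WTAP and RBM15 were not listed. TRMT6, the partner of TRMT61A in methylating N1 of adenosine in transfer RNA, had 1 position in each table and is described with the shared positions, while TRMT61A was not listed.

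The 2 m6A demethylases were listed in opposite tables. Of all listed genes, 28.3% were in the TGF-β1 table alone and 27.3% in the control table alone. ALKBH5 had coding positions of 3.08% and 8.81% after TGF-β1, which lay 73 bases apart, and 0 in control. FTO had 0 positions after TGF-β1 and coding positions of 14.9% (chromosome 16 position 53934076) and 5.53% in control. The FTO value of 14.9% was the highest of all control values in the members, and its authors' p-value was 0.000204.

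Readers of m6A had 3 positions after TGF-β1 and 8 in control. IGF2BP2, which binds and stabilises messenger RNA, had 1 and 5. After TGF-β1 its 1 position was in the 3′UTR at 6.66%. In control it had 3′UTR, coding and 5′UTR positions, with 13.2% at chromosome 3 position 185645349 in the 3′UTR, 1.40% and 2.46% in coding sequence, and 1.93% beside the 4.65% given above in the 5′UTR. The 3′UTR cytidines of the 2 tables were 416 bases apart. YTHDF1 had coding positions of 5.91% and 5.02% after TGF-β1 and 0 in control. Its paralog YTHDF2, known for directing m6A-marked transcripts to decay, had 0 after TGF-β1 and coding positions of 7.95% and 4.04% in control, 2 bases apart. YTHDC1, the nuclear reader, had 1 control position in its 5′UTR at 4.71%. YTHDF3, YTHDC2, IGF2BP1 and IGF2BP3 had no listed position.

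Among the genes acting on cytidine, 3 of the 4 listed had more positions after TGF-β1, beside 51.2% of all listed genes. YBX1, a cold shock protein described as a reader of 5-methylcytidine (m5C), had 7 and 3 positions, the largest number of any member, all in coding sequence. Of its 7 TGF-β1 positions 3 were also in the control table, and the other 4 were at 2.21%, 2.42%, 3.57% and 20.4%. The value of 20.4%, at chromosome 1 position 42700883, was the highest of all member values in either table, with an authors' p-value of 0.000142. At 2.21%, 2.42% and 3.57% the authors' p-values were smaller, at 1.15e-09, 2.74e-15 and 3.56e-13. RefSeq holds 10 pseudogenes named after YBX1, and YBX1P10 itself was listed with 2 positions after TGF-β1 and 0 in control, so reads of the gene and of its copies may not be separable. ALYREF, an export adaptor that binds m5C, had 5 positions after TGF-β1, from 1.43% to 4.12%, and 2 in control at 1.54% and 8.75%, and shared none of them. The ALYREF cytidine at chromosome 17 position 81888556, at 4.12% after TGF-β1, lay 17 bases from that of 1.54% in control. NSUN2, a writer of m5C in transfer and messenger RNA, had coding positions of 7.004%, 3.43% and 3.23% after TGF-β1 and 1 of 4.67% in control. APOBEC3C, a cytidine deaminase that acts mainly on single-stranded DNA, had 0 positions after TGF-β1 and 1 in control at 2.55%. NSUN5, TRDMT1 and APOBEC3B were not listed.

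All 6 genes acting on uridine were listed, and 4 of them had more positions after TGF-β1, beside the same 51.2%. PUS1, a pseudouridine synthase of transfer RNA, had 5 and 2 positions, all coding. After TGF-β1 these were 4.91%, 13.7%, 12.5%, 10.4% and 7.82%, and in control 12.7% and 5.36%. Only 1 of the 7 PUS1 values was thus under 5%. DUS1L and DUS3L, which reduce uridine to dihydrouridine in transfer RNA, had 4 and 2 and 3 and 0 positions. In DUS1L the TGF-β1 values were 3.55%, 5.06%, 7.17% and 6.91%, of which the first 3 lay within a few bases of each other from chromosome 17 position 82060768 to 82060773, and the control values were 3.83% and 3.32% at other cytidines. In DUS3L the TGF-β1 values were 9.72%, 3.39% and 4.31%. CTU2, a subunit of the enzyme that thiolates wobble uridine, had 1 position at 6.99% after TGF-β1 and 0 in control. The other two genes had fewer positions. ELP3, the catalytic subunit of Elongator, had 1 position after TGF-β1, at 11.7% in the 3′UTR, and 2 in control at 6.86% in coding sequence and 6.09% in the 3′UTR, and its 3′UTR cytidines of the 2 tables were 2 bases apart. PUS7, a pseudouridine synthase of transfer and messenger RNA, had 0 positions after TGF-β1 and 1 in control at 4.70%. TRMT1 had 6.22% and 8.77% after TGF-β1, and METTL1, the writer of N7-methylguanosine in transfer RNA, was not listed.

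**Figure D2:**
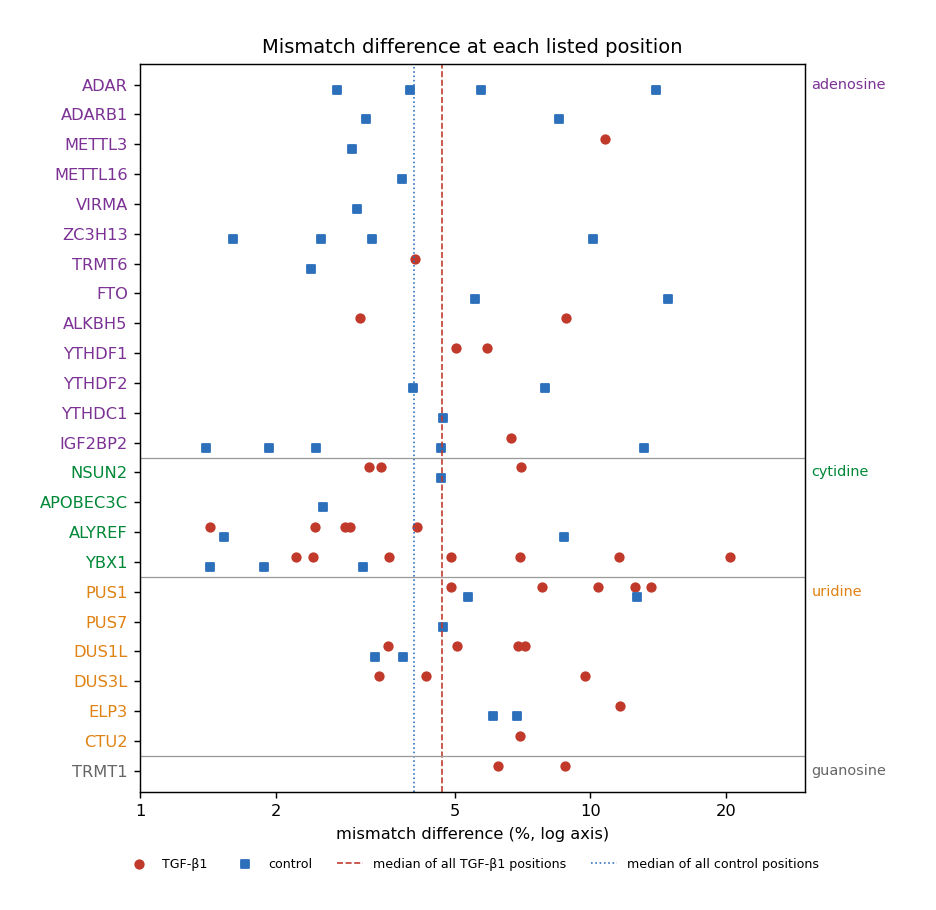
Mismatch difference in percent on a log axis (x axis) at every listed position of each gene (y axis), with TGF-β1 as red circles and control as blue squares; the lines mark the medians over all positions of the tables, 4.68% after TGF-β1 and 4.05% in control. The highest values are 20.4% in YBX1 after TGF-β1 and 14.9% in FTO in control.

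Levels within the members were set beside those of the tables as a whole. The median mismatch difference was 5.48% after TGF-β1 and 3.90% in control, beside 4.68% and 4.05% over all positions. A level of 10% or more was found at 7 of 38 TGF-β1 positions and 5 of 38 control positions, where the shares over all positions were 18.5% and 12.4%. By class the medians were 5.91% and 3.88% for adenosine, 3.43% and 2.55% for cytidine, and 7.08% and 5.36% for uridine genes, in TGF-β1 and control. Coding sequence held 35 of the 38 member positions after TGF-β1 and 29 of the 38 in control, where its shares over all positions were 76.3% and 74.7%. The 3′UTRs held 3 and 5, beside 12% and 12.6% over all positions, and the 5′UTRs 0 and 4, beside 9.96% and 9.87%. The 4 control positions in 5′UTRs of members were in ADARB1, YTHDC1 and IGF2BP2. Member positions lay at a median of 67.4% of the gene's span from its 5′ end after TGF-β1 and 69.5% in control, beside 66.7% and 67.5% over all genes. Another position of the same gene within 10 bases was present at 9 of the 70 member positions (12.9%), against 16.4% over all genes.

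**Figure D3:**
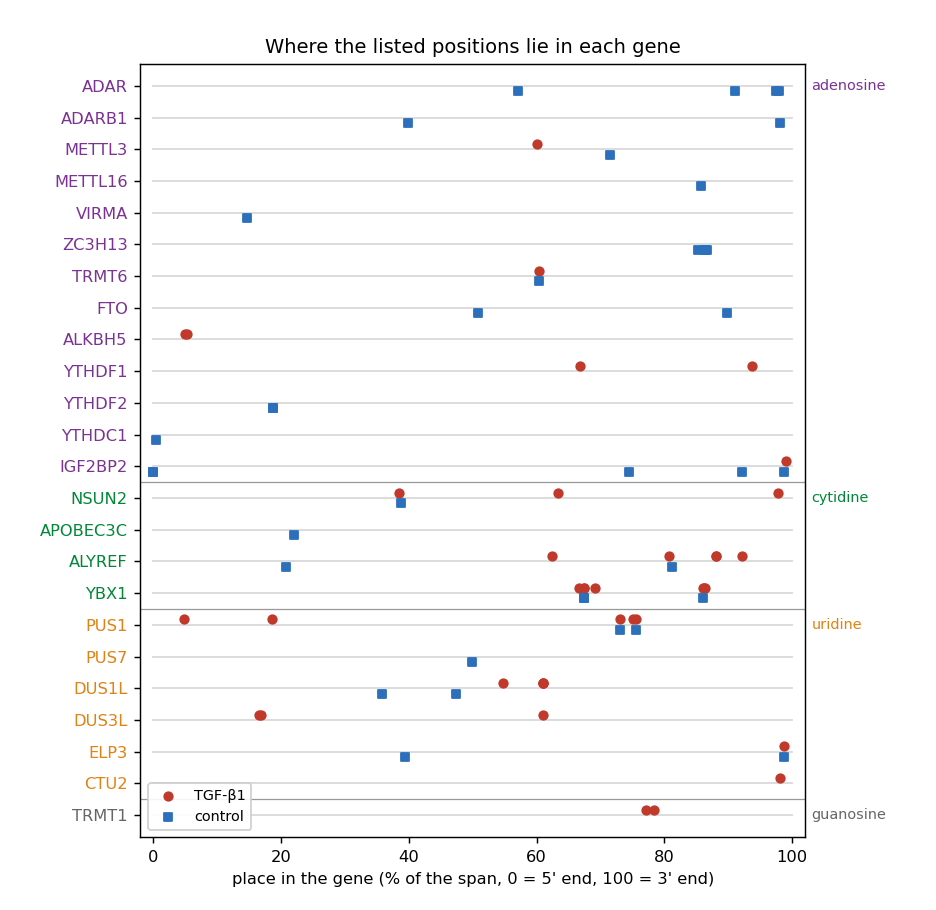
Place of each listed position along its gene (x axis, percent of the gene's span from the 5′ end) for the 24 listed genes (y axis), with TGF-β1 as red circles and control as blue squares. The medians are 67.4% after TGF-β1 and 69.5% in control.

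Both tables shared 6 of the 38 member positions that each held, against 16.9% of all TGF-β1 positions and 24.5% of all control positions. They were 3 cytidines in YBX1, 2 in PUS1 and 1 in TRMT6, all in coding sequence. Of these 6, 5 were higher after TGF-β1, against 78.4% of the 1985 shared positions of the tables, and 4 were higher by 1.5-fold or more, against 49.8%. The YBX1 cytidine at chromosome 1 position 42696821 had 6.96% after TGF-β1 and 1.88% in control. The next, 30 bases downstream at position 42696851, had 11.6% and 3.12%, and that at position 42700814 had 4.90% and 1.43%. The 3 YBX1 ratios thus lay close together, at 3.70, 3.70 and 3.43. At position 42696851 the authors' p-value was 0.000475 after TGF-β1 and 1.34e-21 in control, so the higher level had the larger p-value, whereas at the other YBX1 cytidines it was smaller after TGF-β1. PUS1 had 12.5% and 12.7% at chromosome 12 position 131941390, a difference of -0.12 points, and 7.82% and 5.36% at position 131941823. TRMT6 had 4.07% and 2.39% at chromosome 20 position 5942512. The median difference over the 6 positions was 2.97 points, and without YBX1 it was 1.68 points over 3 positions, beside 1.73 points over all shared positions.

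**Figure D4:**
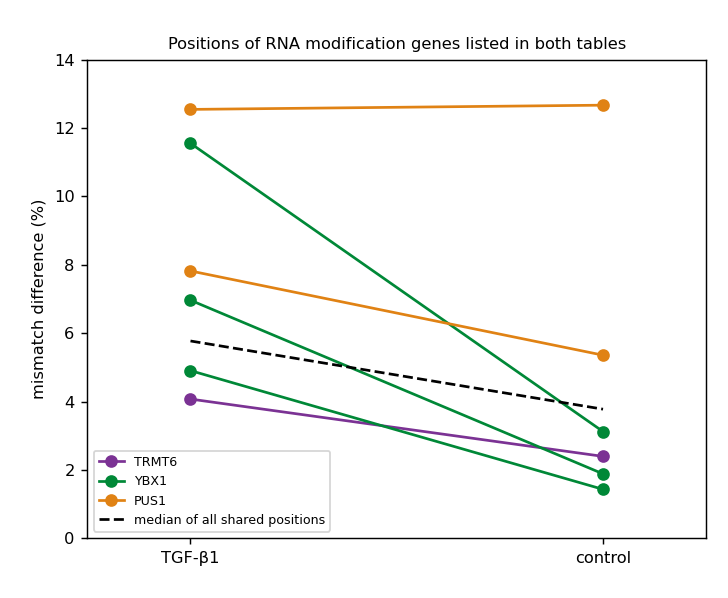
Mismatch difference in percent (y axis) at the 6 positions listed in both tables, TGF-β1 on the left and control on the right, coloured by gene, with the median of all 1985 shared positions (5.77% and 3.78%) as a dashed line. The 3 YBX1 lines have ratios from 3.43 to 3.70, and 1 PUS1 line is nearly level at 12.5% and 12.7%.

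Counted by gene, 9 of 24 were found in both lists, against 44.4% of all genes, 5 in the TGF-β1 table alone, against 28.3%, and 10 in the control table alone. In the 9 genes found in both, 6 of 28 TGF-β1 positions (21.4%) and 6 of 19 control positions (31.6%) recurred in the other table. Over all genes found in both, 22.5% and 34.7% did.

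Gene span moved with the direction of the counts. The 10 members with more positions after TGF-β1 had spans from 3.75 to 34.1 kb with a median of 14.7 kb, and the 12 with fewer had spans from 6.10 to 457 kb with a median of 90.5 kb. Over all genes the medians were 21.1 kb and 48.6 kb. Members shorter than the median span of all listed genes (29.2 kb) had 33 positions after TGF-β1 and 12 in control, a ratio of 2.75 beside 1.96 over all genes of that size. Members above it had 5 and 26, a ratio of 0.192 beside 1.11 over all genes above it. Of these 12 members 8 were among the 1528 listed genes with the largest spans (65.6 kb and more), with 2 and 18 positions, and over those 1528 genes the ratio was 0.818 and 56.9% had fewer. The 4 adenosine genes below the median span, ALKBH5, METTL3, TRMT6 and YTHDF1, had 6 and 2 positions, and the 9 above it had 1 and 22, all 9 with fewer after TGF-β1, where 46.9% of all genes had fewer. Of these 9, 6 spanned 65.6 kb or more, with 1 and 15 positions. Among cytidine genes 3 were below it, with 12 and 6 positions, and among uridine genes 4 were, with 13 and 4. The cytidine and uridine genes above it were NSUN2 with 3 and 1 positions, ELP3 with 1 and 2, and PUS7 with 0 and 1. Below the median span the ratio was thus 3 for adenosine (6 and 2 positions), 2 for cytidine and 3.25 for uridine genes. Above it the ratio was 0.0455 for the 9 adenosine genes (1 and 22 positions). The 3 cytidine and uridine genes above it had 4 and 4 positions, a ratio of 1, beside 1.11 over all genes above it. The split by span was chosen after the class counts were seen, and the part of span in the difference between the classes was not tested.

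**Figure D5:**
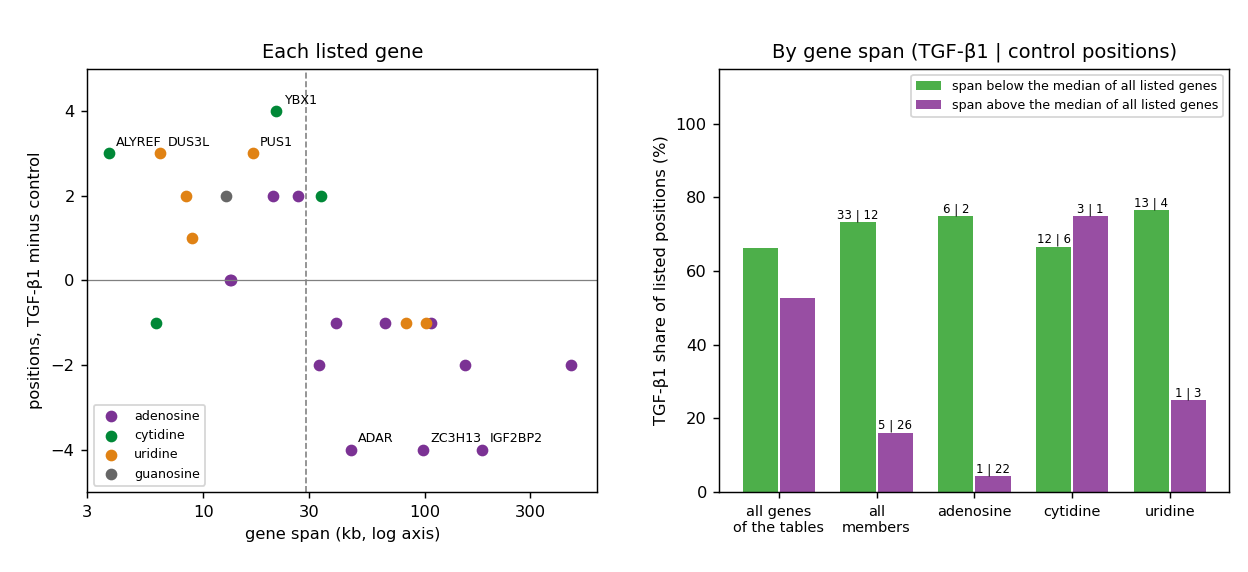
Left, the difference in listed positions (TGF-β1 minus control, y axis) against gene span in kb on a log axis for the 24 listed genes, coloured by base, with the median span of all listed genes (29.2 kb) as a dashed line. Right, the TGF-β1 share of listed positions in percent for genes below (green) and above (purple) that median, with TGF-β1 and control counts over the bars; the share is 73.3% and 16.1% for all members and 66.3% and 52.6% for all genes.

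The authors' p-values at a given level differed between the tables, and read depth is not given. From 5 to 10% the median p-value was 3.14e-06 after TGF-β1 and 0.000105 in control over all positions, and 0.000895 and 0.000363 over the 14 and 8 member positions in that range. From 3 to 5% the members' medians were 5.02e-09 over 11 positions and 0.000294 over 13. Neither depth nor transcript level could be set beside these counts, and their part in them was not tested.

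Other genes of RNA modification were counted in the same way. A list of 94 other RNA modification genes, written with earlier results of these data known, had 33 listed members with 74 positions after TGF-β1 and 50 in control, a ratio of 1.48 beside 1.46 over all genes. Of the 33, 19 had more positions, 10 fewer and 4 equal numbers, where 51.2% of all listed genes had more and 35.3% fewer. Its 10 listed adenosine genes had 35 and 23 positions. Those above the median span, 6 genes, had 16 and 8 positions, a ratio of 2, and the 4 below it had 19 and 15, a ratio of 1.27. Most of the TGF-β1 positions above the median span were in HNRNPA2B1 and HNRNPC, which both had more after TGF-β1. The remaining 4 genes above it had 4 and 5, where HNRNPA2B1 and HNRNPC were set apart with their counts known. At 65.6 kb or more the list of 94 had 2 listed genes with 0 and 4 positions. HNRNPA2B1 had 7 and 1 positions, HNRNPC 5 and 2, and PRRC2A, an m6A reader, 15 and 14. CDK5RAP1, which modifies an adenosine of mitochondrial transfer RNA, had 3 and 3. The 3 listed cytidine genes had 6 and 2 positions, of which NOP2, an m5C writer of ribosomal RNA, had 6 and 0, and METTL2A and METTL2B, related methyltransferases of transfer RNA, had 0 and 1 each. Uridine genes had 16 and 13 positions, with URM1, the sulphur carrier of wobble thiolation, at 4 and 0, the Elongator subunit ELP6 at 4 and 2, and the mitochondrial pseudouridine synthase RPUSD3 at 2 and 2. Among writers of ribose methylation FTSJ3 had 7 and 6 positions, FTSJ1 had 2 and 2, and the cap methyltransferase CMTR1 had 1 and 4. At the 14 cytidines of this list found in both tables, 9 were higher after TGF-β1, beside 78.4% of all shared positions. The highest of them, in PRRC2A at chromosome 6 position 31628232, had 11.9% after TGF-β1 and 11.5% in control.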

How the data were processed

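Each group came as a single deposited table, in which a cytidine occupies as many lines as there are transcripts over it. The values in the diff column are a fraction, as deposited by the authors and per the file headers; they are called the mismatch difference and printed in percent. The sources do not say which quantities it subtracts. All deposited p-values lie below 0.05, without a statement on adjustment. The submitters' processing notes name fastp 0.23.1, STAR 2.7.6a, featureCounts and build hg38, without their roles. The position caller, its filters and the way libraries were combined are not stated in those sources. Depth is unknown.

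Lines were merged to 1 entry per position and gene with Python 3.11.15 and pandas 2.3.3. The segment is that of most transcripts, with coding sequence first in ties. The end coordinate is the 1-based position. All 39 member names were found in RefSeq. With 1 value per position and group, counts and levels are given without a test, beside those over all genes or positions. The members, their classes and all gene lists were chosen with earlier results of these data known. Every listed member is named with its counts, and levels are given for all of them. Other RNA modification genes are named from 4 positions over both tables, with the class and span comparisons as described. Counting was tested on simulated tables. Alternatives changed list length, minimum level, p-value threshold, segment, gene assignment and the genes included. No member position was assigned to several genes, so the change of gene assignment could not alter a member count. Leaving out YBX1 could not alter the adenosine or uridine counts.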

Additional observations from a re-analysis of the deposited data

How the results depend on the processing

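The class ratios kept their direction under every processing alternative tried. They varied in size, with 0.208 to 0.625 for adenosine, 1.86 to 4 for cytidine and 1.14 to 2.60 for uridine genes. The split by gene span was not among these alternatives, and directions did change there. The adenosine ratio was 3 below the median span and 0.0455 above it. The uridine ratio was 3.25 below and 0.333 above, and the cytidine ratio 2 below and 3 above. The median difference at shared positions ran from 1.17 to 3.47 points. The range for adenosine includes 0.35 without ZC3H13 and 0.208 without ALKBH5, left out in turn after the data were seen. With positions of at least 5% only, the ratio over all members was 1.62 (all genes 1.75), and ALYREF reversed to a difference of -1. At that level 7 genes in place of 12 had fewer positions after TGF-β1 (all genes 30.1% in place of 35.3%). With the TGF-β1 table shortened to the control's length, 6 genes in place of 10 had more positions (all genes 39.0% in place of 51.2%). As before, 12 had fewer, where the share of all genes rose from 35.3% to 47.3%. The ratio over all members was then 0.684 and that of all genes 1.00, a loss fixed by the shorter list. Under both settings members left without a position drop out, so fewer than 24 stand behind these counts. Shared positions higher after TGF-β1 numbered 2 of 3 without YBX1, 3 of 4 at 2% or more and 1 of 2 at 5% or more, where fewer positions remain. Of the single-gene differences under the alternatives, 174 stayed within 1 position of the main result, 17 moved further and 1 reversed. At 5% or more ZC3H13 had 0 positions after TGF-β1 and 1 in control, and IGF2BP2 had 1 and 1. With p below 0.01 ZC3H13 had 0 and 2, and in coding sequence only ADARB1 had 0 and 0. In the shortened list YTHDF1 and TRMT1 had 0 and 0. Other causes were not tested. Leaving out a library could not be done, and depth cannot be read from the tables. No paired analysis was possible because each group has 1 combined value per position.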

Other observations

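Around the 406 positions of the tables that lie well inside a RefSeq promoter window, the base after the listed cytidine was G at 55.7%, A at 21.7%, C at 11.3% and T at 11.3%. Among the 27901 cytidines of the same strand in the same windows, G followed 30.3%, A 17.2%, C 31.7% and T 20.9%. The base before was G at 49.5% of listed positions, against 37.1% of all cytidines in these windows. G followed 58.3% of the 259 positions listed after TGF-β1 and 51.1% of the 188 listed in control. The printed IGF2BP2 and ALYREF cytidines are both followed by G. These windows run from 250 bases before to 50 bases after the RefSeq start of a gene, so most of each window lies upstream of that gene. The 27901 cytidines are thus not limited to transcribed sequence, and the part of this in the shares was not tested. Most member positions lay in coding sequence outside these windows and were not read.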
